A study of Sus scrofa with 24 samples.

Results

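The insulin-like growth factor (IGF) genes were followed in cultured pig preadipocytes, the fibroblast-like precursors of fat cells. The set was chosen by gene symbol and held 10 genes, the ligands IGF1 and IGF2, the receptors IGF1R and IGF2R, and the binding proteins IGFBP2, IGFBP3, IGFBP4, IGFBP5, IGFBP6 and IGFBP7. Values were obtained for 8 of the 10 among the 25462 genes of the expression table. IGF2 and IGFBP3 had no identifier in the gene name table used here and were not analysed here. All 8 genes passed the filter on low values, which kept 16135 genes with a summed FPKM over 1.

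Cells of 2 depots were taken from Yorkshire piglets at 6 days of age. BF cells came from back subcutaneous fat, and IMF cells from digested tissue of the longissimus dorsi muscle. Day 0 cells were uninduced. Day 2 cells had been in medium with IBMX (a phosphodiesterase inhibitor), dexamethasone (a glucocorticoid) and insulin, day 4 cells had then been in medium with insulin, and day 8 cells had returned to growth medium. Each of the 8 groups, named by depot and day (BF-0d to IMF-8d), held 3 libraries, and the labels do not tie a replicate number to an animal. The p-values therefore measure the spread between these libraries, which may be technical. Insulin, which at high concentration can also engage the IGF1 receptor, was in the medium of both depots.

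IGF1 and IGF2 are secreted growth factors that signal through IGF1R, a receptor tyrosine kinase closely related to the insulin receptor. IGF2R, the cation-independent mannose 6-phosphate receptor, removes IGF2 to the lysosome. The binding proteins hold IGFs outside the cell, prolong their life in tissue and limit or direct their access to the receptor. In fat, IGF1 is known as a signal for the multiplication and differentiation of preadipocytes.

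The binding proteins share a cysteine-rich first domain, and its coding sequence is shown because a signature in it is shared by IGFBP2, IGFBP4 and IGFBP5. The signatures were chosen after the values were seen. In RefSeq gene models on Sscrofa11.1, the first signature codes for glycine, cysteine, glycine, cysteine, cysteine, any 2 residues and cysteine. It was found in IGFBP2, IGFBP4 and IGFBP5 and not in IGFBP6 or IGFBP7. Among 19548 coding genes searched, 8 held it (0.0409%), the others being IGFBP1, IGFBP3, CTGF, CYR61 and WISP3. IGFBP1 was listed at 0 FPKM in all 24 libraries, and thus held the signature without a rise. IGFBP3 was not analysed here, and the levels of CTGF, CYR61 and WISP3 were not examined. The stretches follow, 5′ to 3′ on the coding strand, with cysteine codons in capitals.
IGFBP2: ggcTGCggcTGCTGCtctgtgTGC
IGFBP4: ggcTGCggcTGTTGCgccactTGC
IGFBP5: ggcTGCggcTGCTGCatgaccTGC
They lie in the first coding exon at chr15:118822388-118822411 (plus strand), chr12:21979864-21979887 (minus strand) and chr15:118877614-118877637 (minus strand).

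The second signature codes for cysteine, glycine, valine or isoleucine, tyrosine, threonine, any 2 residues and cysteine. It was found in IGFBP2, IGFBP4, IGFBP5 and IGFBP6 and not in IGFBP7, a related protein with low affinity for IGFs. Of the 19548 genes, 5 held it (0.0256%), IGFBP3 being the other.
IGFBP2: TGCggcgtgtacaccccgcgcTGC
IGFBP4: TGCggggtgtatacaccccgcTGT
IGFBP5: TGCggcgtctacactgagcgcTGC
IGFBP6: TGCggggtctacactcctaacTGC
These stretches lie at chr15:118822433-118822456 (plus strand), chr12:21979819-21979842 (minus strand), chr15:118877569-118877592 (minus strand) and chr5:18353656-18353679 (plus strand). A match describes the sequence and was not tested against expression.

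IGFBP2 (chr15:118822092-118850985) and IGFBP5 (chr15:118861816-118877787) are neighbours on chromosome 15 that point towards each other, 10830 bases apart. IGFBP4 lies at chr12:21966524-21980043, IGFBP6 at chr5:18352884-18357225 and IGFBP7 at chr8:56283089-56357822. IGF1 lies at chr5:81762027-81909253, IGF1R at chr1:137383623-137691038 and IGF2R at chr1:7369485-7472480. IGFBP7 overlaps POLR2B, IGF1R overlaps PGPEP1L and IGF1 overlaps 2 long noncoding genes. Whether counting used strand is not given in the sources used here, so reads in those overlaps may have been shared.

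FPKM totals were 307967 to 385768 per library, 9985 to 10858 genes reached 1 FPKM, and the deposited values give no read depth. Replicates correlated at 0.962 to 0.994 across genes, and 0 library pairs were identical. BF-2d replicate 3 stood apart. On the first principal component (52.3% of the variance) it lay at -17.2 against 26.5 and 27.2 in the other BF-2d libraries. LPL, the lipoprotein lipase gene, was at 6.71 FPKM in it against 82.1 and 77.7. By correlation across genes BF-4d replicate 3 also stood apart from its group, at 0.965 and 0.970 with the other BF-4d libraries, which had 0.991 between them, and its first component was 65.1 against 43.1 and 51.04.

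The labelled cell type was checked with marker genes. All 7 stromal markers measured, collagens and PDGF receptors among them, reached at least 1 FPKM in every group. Their summed level moved with day and depot, from 13573 to 14837 FPKM in BF-0d to 3943 to 6070 FPKM in BF-4d, and from 12501 to 12704 FPKM in IMF-4d to 7294 to 8355 FPKM in IMF-8d. COL1A1, a collagen chain, was called in 9 of 16 comparisons, among them falls of 2.05 in BF between days 2 and 4 and of 1.09 in IMF between days 4 and 8 (log2 scale, limma adjusted p = 4.08e-05 and 0.00353). The second of these was kept in 1 of 6 fits that left out a compared library, the one without IMF-8d replicate 3, and ended under median ratio scaling. Of the 8 adipocyte markers, 3 (ADIPOQ, PLIN1 and LEP) were near 0 on all days, at most 0.230, 0.0773 and 0.0313 FPKM. The lipid droplet gene CIDEC was at most 1.15 FPKM. PPARG, the master regulator of fat cell formation, was at most 5.75 FPKM and was lower in BF-8d than in BF-0d by 1.04 on the log2 scale (log2 difference -1.04, limma adjusted p = 0.0061), a call kept in 1 of 6 fits that left out a compared library. FABP4, the fatty acid carrier of fat cells, was at 5.996, 1.73 and 2.68 FPKM in BF-8d and at most 0.676 FPKM in IMF. It rose by 1.34 in BF between days 4 and 8 (adjusted p = 0.00063), and by less than the fold threshold without BF-8d replicate 1 (0.96). LPL went from 2.22 to 422 FPKM in BF and from 1.06 to 120 FPKM in IMF between days 0 and 8. The muscle determination genes MYF5 and MYOD1 were listed at 0 in all 24 libraries. DES, an intermediate filament gene, was called higher in IMF on all 4 days, the day 2 call being kept in 2 and the day 8 call in 5 of 6 fits that left out a compared library. Of the endothelial list 1 gene, PECAM1, was tested, and the summed list was at most 5.20 FPKM. The immune list was at most 18.8 FPKM, and limma called neither of its 2 tested genes in any comparison. The part of these markers in the results was not tested. Of the adipocyte markers, PPARG, FABP4 and LPL thus went different ways in BF, and LPL reached the highest level of that list in BF-8d and IMF-8d. In bulk RNA, fewer cells of a type and less RNA per cell cannot be told apart.

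**Figure D1:**
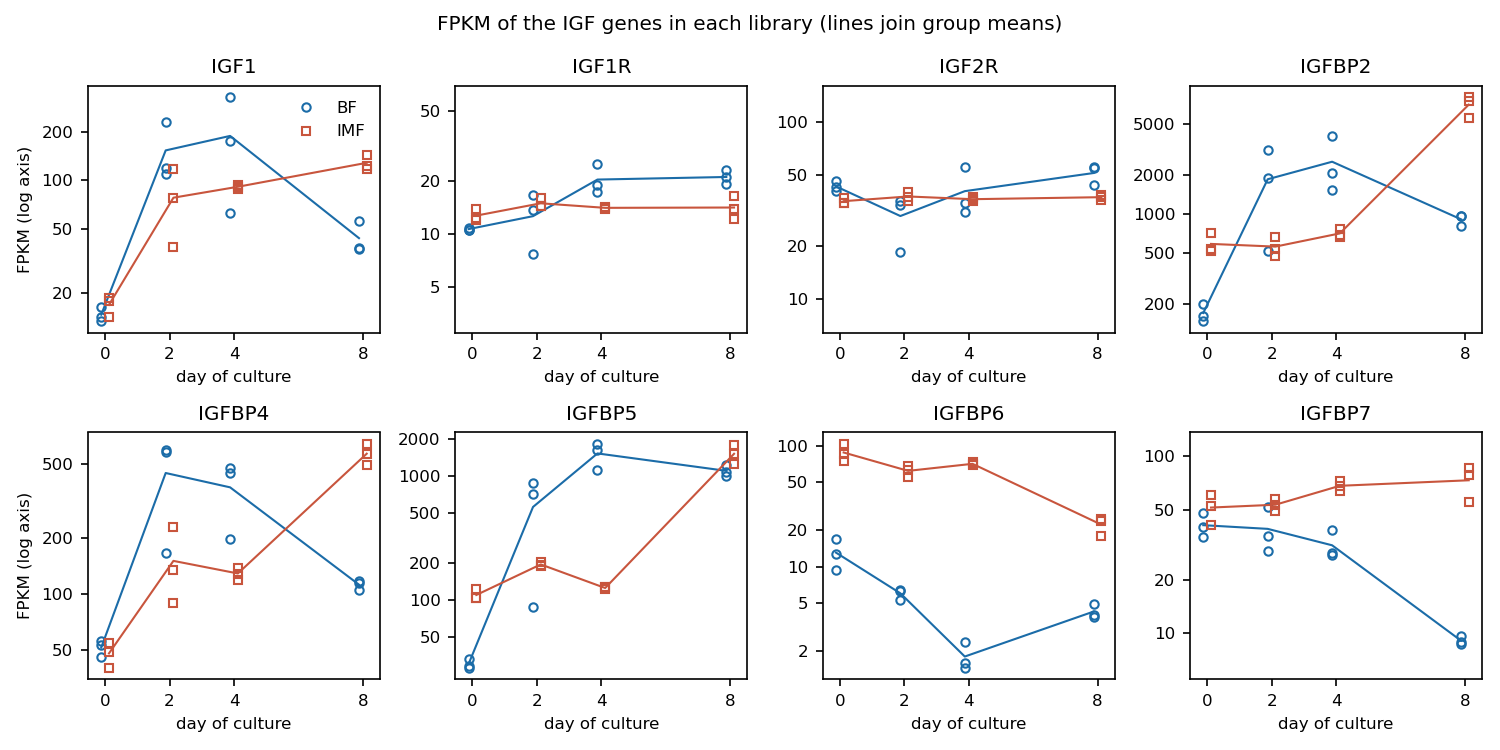
FPKM (log axis) of 8 IGF genes against day of culture, 1 symbol per library, 3 libraries per depot and day, with lines joining group means of BF (circles) and IMF (squares). IGFBP2, IGFBP4 and IGFBP5 climb by day 2 in BF and at day 8 in IMF. In IMF the day 2 libraries of IGFBP4 and IGFBP5 also lie above those of day 0. IGFBP6 lies higher in IMF on each day, and IGF1R and IGF2R stay within 7.68 to 24.8 and 18.4 to 56.0 FPKM.

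IGF1, the ligand with values, was low in uninduced cells of both depots and rose in both by day 2. BF-0d libraries had 16.4, 13.3 and 14.2 FPKM and BF-2d libraries 230, 119 and 109 FPKM. IMF-0d libraries had 18.6, 17.8 and 14.2 FPKM and IMF-2d libraries 77.7, 117 and 38.3 FPKM. The day 0 libraries lay below all day 2 libraries in each depot. The log2 fold change, on the scale of log2(FPKM + 1) used for all tests, was 3.22 in BF (standard error, SE, 0.43, limma adjusted p = 1.33e-05) and 2.01 in IMF (SE 0.43, adjusted p = 0.00574). The difference between depots in this rise was not called (-1.21, SE 0.60, adjusted p = 0.183). A gene was called where the adjusted p was under 0.01 and the log2 fold change was 1 or more in either direction. The IMF call ended without any 1 of IMF-0d replicates 1, 2 and 3 or IMF-2d replicates 1 and 2, with log2 fold changes of 1.65 to 2.44 as each of the 6 libraries compared was left out.

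From day 4 to day 8 IGF1 fell in BF and was not called in IMF. BF-4d libraries had 327, 175 and 62.1 FPKM and BF-8d libraries 37.3, 55.9 and 37.8 FPKM, a fall of 1.81 on the log2 scale (SE 0.43, adjusted p = 0.00551). IMF-4d libraries had 93.8, 90.8 and 88.3 FPKM and IMF-8d libraries 118, 144 and 122 FPKM (log2 fold change 0.48, SE 0.43, adjusted p = 0.404, not called). The BF-4d libraries were spread more widely than those of any other group for this gene (SD 133 FPKM), and all 3 exceeded the BF-8d libraries. The fall ended as a call without BF-4d replicate 1 or 2 or BF-8d replicate 1 or 3 (range -2.45 to -1.26). The difference between depots in this interval was 2.29 (SE 0.60, adjusted p = 0.0112), past the fold threshold but not the adjusted p. It was called without BF-2d replicate 1, BF-4d replicate 3 or IMF-2d replicate 2 or 3, and with the replicate number as a block.

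On day 8, IGF1 was higher in IMF (128 ± 13.8 FPKM, SD, n = 3) than in BF (43.7 ± 10.6 FPKM), with no overlap between the groups. The log2 difference was 1.55 (SE 0.43, adjusted p = 0.00743), and the call was kept in 1 of 6 fits that each left out a compared library, the one without BF-8d replicate 2, at values of 1.45 to 1.74. Against day 0, the day 8 level was higher by 2.86 in IMF (SE 0.43, adjusted p = 2.60e-05) and by 1.49 in BF (SE 0.43, adjusted p = 0.00645), and the BF call was kept in 0 of 6 such fits (1.31 to 1.59). In the order of group means, BF-0d and IMF-0d were lowest and overlapped, and BF-2d and BF-4d were highest. The BF-2d libraries overlapped with those of BF-4d and of IMF-8d, and BF-4d replicate 3 (62.1 FPKM) lay below all IMF-4d libraries.

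The receptors varied far less than the ligand. IGF1R libraries lay between 7.68 and 24.8 FPKM and IGF2R libraries between 18.4 and 56.0 FPKM, and neither receptor was called by limma in any of the 16 comparisons, with an unadjusted p under 0.05 in 6 for IGF1R and 5 for IGF2R. Both extremes of IGF1R were in BF, in BF-2d replicate 2 and BF-4d replicate 3. BF-0d libraries had 10.5, 10.9 and 10.6 FPKM of IGF1R and BF-8d libraries 19.1, 23.0 and 21.1 FPKM, which did not overlap. That difference was 0.92 on the log2 scale (SE 0.18, adjusted p = 0.000283), under the fold threshold of 1, and it was called under median ratio scaling or quantile normalization. In IMF the corresponding change was 0.13 (SE 0.18, adjusted p = 0.604). IGF2R had its lowest value in BF-2d replicate 2 (18.4 FPKM) with 34.0 and 35.8 FPKM in the other BF-2d libraries. INSR, the insulin receptor, lay between 0.911 and 5.85 FPKM and was called in 0 of 16 comparisons by limma, with 7 at an unadjusted p under 0.05. Per length, the IGF1R level therefore exceeded that of INSR in all 8 group means.

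In BF, the first 2 days brought the main rise of the binding proteins. IGFBP2, IGFBP4 and IGFBP5 rose with IGF1, so that 4 of 8 genes were called, all higher, where 6.59% of all tested genes were called (2.71% higher). The median log2 fold change of the 8 genes was 1.52 and that of all tested genes -0.04. Markers of several cell types were called in the same interval. LPL (3.54), the adipogenic transcription factor CEBPA (1.67) and PDGFRA (1.86) were higher, and COL1A1 (-1.10), DES (-1.49), PECAM1 (-1.13) and FABP4 (-1.15) were lower in BF-2d. The COL1A1 call was kept in 2 of 6 fits that left out a compared library, and that of PECAM1 in 5 of 6. The part of these markers in the rise of the binding proteins in BF was not tested. Later intervals in BF held fewer calls, with 1 rise and 1 fall from day 2 to day 4 (background 3.35%) and 3 falls from day 4 to day 8 (background 2.93%, 1.14% lower). LPL (2.54) was called higher and CEBPA (-1.19), COL1A1 and COL1A2 (-1.22) lower in the second of the 3 intervals, and FABP4 higher in the last.

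IGFBP2, a major binding protein of the fetal and postnatal circulation, was at 146, 162 and 200 FPKM in BF-0d and at 1908, 3179 and 510 FPKM in BF-2d. All BF-2d libraries exceeded all BF-0d libraries, with replicate 3 the lowest. The rise was 3.11 (SE 0.43, adjusted p = 1.88e-05), and 2.55 to 3.87 as each of the 6 compared libraries was left out. BF-4d libraries had 2100, 4021 and 1545 FPKM and BF-8d libraries 957, 970 and 802 FPKM. These groups did not overlap, but the difference of -1.38 (SE 0.43, adjusted p = 0.0286) was not called. It was called without BF-2d replicate 2 or 3, at an adjusted p of 0.00105 without replicate 3.

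IGFBP5, a matrix-binding member that PAPPA can cleave, showed the widest range of group means of all 8 genes. It was at 29.4, 33.3 and 28.2 FPKM in BF-0d and at 889, 716 and 87.6 FPKM in BF-2d (log2 fold change 3.62, SE 0.50, adjusted p = 2.31e-05). The size of that rise depended on the libraries, from 3.01 to 4.68 as each of the 6 compared was left out, and it was called in all 6 fits. It reached 1625, 1832 and 1129 FPKM in BF-4d and stayed at 995, 1085 and 1234 FPKM in BF-8d. The day 2 to day 4 rise of 1.97 (SE 0.50, adjusted p = 0.00848) rested on BF-2d replicate 3, without which it was 0.91 and under the fold threshold. Among the 24 fits that each left out 1 library, that call was kept in 4, those without BF-2d replicate 1 or 2 or BF-8d replicate 1 or 2. The day 0 to day 8 rise in BF was 5.14 (SE 0.50, adjusted p = 8.49e-08).

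IGFBP4, generally an inhibitor of IGF action until PAPPA cleaves it, was at 45.6, 52.8 and 55.8 FPKM in BF-0d. BF-2d libraries had 577, 591 and 166 FPKM, a rise of 2.88 (SE 0.39, adjusted p = 1.49e-05, range 2.57 to 3.49). The level then went from 476, 445 and 197 FPKM in BF-4d to 114, 117 and 104 FPKM in BF-8d. That fall of 1.63 (SE 0.39, adjusted p = 0.00593) was kept as a call in 1 of 6 fits that left out a compared library, the one without BF-4d replicate 3 (range -2.03 to -1.40). IGFBP4 thus fell in BF over the interval in which IGF1 fell.

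IGFBP6, which prefers IGF2 as its ligand, and IGFBP7 were lower in BF on day 8 than on day 0. IGFBP6 was at 9.43, 12.8 and 16.9 FPKM in BF-0d, at 5.32, 6.23 and 6.44 FPKM in BF-2d and at 1.57, 1.44 and 2.35 FPKM in BF-4d. The day 0 to day 2 difference of -0.98 (SE 0.18, adjusted p = 0.000308) was under the fold threshold. It was called without BF-0d replicate 1 or BF-2d replicate 2 or 3, and with pseudocount 0.1. IGFBP6 fell by 1.34 between days 2 and 4 (SE 0.18, adjusted p = 4.41e-05). On day 8 it was at 3.97, 3.81 and 4.90 FPKM, a difference from day 4 of 0.92 that was under the fold threshold (SE 0.18, adjusted p = 0.0013) and was called as a rise without BF-4d replicate 3 (1.05), with pseudocount 0.1 (1.22) or under median ratio scaling (1.04). IGFBP7 lay between 27.7 and 51.9 FPKM from day 0 to day 4 in BF and at 8.69, 9.58 and 8.83 FPKM in BF-8d. It fell by 1.68 between days 4 and 8 (SE 0.19, adjusted p = 8.13e-06), and the BF-8d libraries were below all other libraries of the series for this gene.

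Of the 9 calls over successive days in BF, 1 (IGF1 from day 0 to day 2) was kept when limma was fitted to only the 6 libraries of each comparison. The loss was general, since that fit called 237, 0 and 4 of all tested genes in the 3 intervals, in place of 1063, 541 and 472. The groups of the 12 comparisons between 2 groups recur, so that a group with an unusual library touches several of them.

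In IMF the calls of binding proteins fell in the last interval. From day 0 to day 2, IGF1 was the 1 gene called of 8 (background 0.787%), and from day 2 to day 4 limma called 0 of 8 (background 0.0372%), with 0 of the 8 at an unadjusted p under 0.05. From day 4 to day 8, 3 rose and 1 fell (background 7.25%). The median over the 8 genes was 0.28 in that interval, against -0.07 for all tested genes. The marker DES was called lower in IMF between days 0 and 2 (-2.96), and its part was not tested.

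IGFBP2 in IMF was at 534, 513 and 707 FPKM on day 0, 538, 661 and 472 FPKM on day 2 and 764, 692 and 662 FPKM on day 4. It then stood at 7635, 5582 and 8135 FPKM on day 8. The day 8 libraries were above every other library of the series, and the rise from day 4 was 3.32 (SE 0.43, adjusted p = 6.52e-06). IGFBP5 was at 103, 122 and 104 FPKM on day 0, 187, 190 and 203 FPKM on day 2 and 122, 126 and 126 FPKM on day 4. The day 2 libraries lay above those of day 0 and day 4, but neither difference was called (0.82 and -0.63, SE 0.50, adjusted p = 0.377 and 0.886). On day 8 IGFBP5 was at 1256, 1785 and 1514 FPKM. Its rise from day 4 was 3.58 (SE 0.50, adjusted p = 1.94e-05).

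IGFBP4 in IMF was at 48.9, 39.9 and 54.5 FPKM on day 0, 134, 227 and 88.7 FPKM on day 2 and 138, 128 and 119 FPKM on day 4. On day 8 it was at 562, 493 and 639 FPKM (rise of 2.12 from day 4, SE 0.39, adjusted p = 0.000279). The day 0 and day 2 libraries did not overlap, but the difference of 1.54 missed the adjusted p (SE 0.39, adjusted p = 0.0177). It was called without BF-2d replicate 3 or BF-4d replicate 3, and under quantile normalization. IGFBP6 went the other way, from 70.7, 74.3 and 69.3 FPKM on day 4 to 17.9 to 25.0 FPKM on day 8. It fell by 1.65 (SE 0.18, adjusted p = 7.56e-07).

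IGFBP7 lay between 41.0 and 86.1 FPKM in all 12 IMF libraries and was called by limma in 0 of 4 comparisons within IMF, with 1 at an unadjusted p under 0.05. Summed over the adipocyte marker list, FPKM went from 2.79 to 3.67 in IMF-0d to 97.2 to 143 in IMF-8d, nearly all of it LPL. LPL itself rose by 4.21 between days 4 and 8 (SE 0.58, adjusted p = 1.82e-05). The stromal sum was lower in IMF-8d than in IMF-4d, as given above. In that interval DES also fell, by 2.24 (SE 0.29, adjusted p = 7.42e-06), and so did CEBPA, by 1.33 (SE 0.23, adjusted p = 0.000193). The part of these markers in the rise of the binding proteins was not tested.

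**Figure D2:**
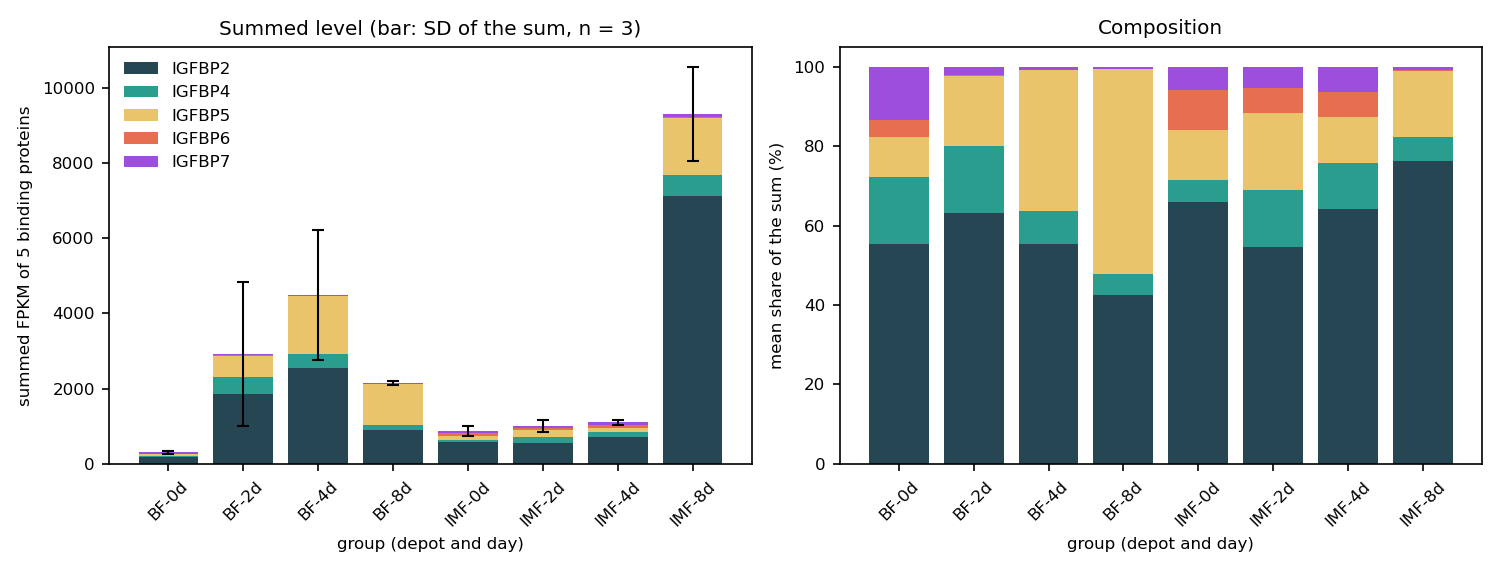
Left, FPKM summed over IGFBP2, IGFBP4, IGFBP5, IGFBP6 and IGFBP7 in each group (stacked group means, error bars SD of the sum over 3 libraries). Right, the mean share of each gene in that sum in percent. IGFBP3 was not analysed here and is not in the sum. The sum is highest in IMF-8d (9296 FPKM) and IGFBP5 holds its largest share in BF-8d (51.6%).

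Because FPKM are per length, the levels of the 5 binding proteins with values were summed. IGFBP3 is missing from the sum, and so from the shares and the ratio to IGF1 given below. IGF2 is missing from that ratio as well. In BF the sum was 305 ± 42.4 FPKM on day 0, 2919 ± 1921 on day 2, 4490 ± 1732 on day 4 and 2140 ± 54.8 on day 8 (SD, n = 3). In IMF it was 882 ± 129, 1016 ± 157, 1099 ± 57.6 and 9296 ± 1254 FPKM on the same days. As a share of all FPKM in a library, the sum went from 0.0959% in BF-0d to 2.51% in IMF-8d. The range in BF-2d, 799 to 4544 FPKM, shows how far apart its libraries were.

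IGFBP2 held the largest share of the sum in 7 of 8 groups, from 54.7% in IMF-2d to 76.2% in IMF-8d. In BF-8d, IGFBP5 held 51.6 ± 5.02% and IGFBP2 42.5 ± 4.70%. IGFBP6 held 10.05% of the sum in IMF-0d and 0.239% in IMF-8d. IGFBP7 held 13.4% in BF-0d and 0.422% in BF-8d. The ratio of the sum to IGF1 in IMF was 53.8 ± 16.3 on day 0, 15.2 ± 6.76 on day 2, 12.1 ± 0.264 on day 4 and 73.7 ± 16.2 on day 8 (SD, n = 3). It was thus already high in uninduced IMF cells, whose libraries (43.7 to 72.6) overlapped those of day 8 (55.2 to 84.9). In BF the ratio was 21.1 ± 4.41, 20.1 ± 16.1, 32.0 ± 17.3 and 50.6 ± 9.95 on the same days, with a spread of 7.33 to 38.1 within BF-2d.

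Between day 0 and day 8, 5 of 8 genes were called in BF (3 higher, 2 lower, background 13.7%) and 5 of 8 in IMF (4 higher, 1 lower, background 9.04%). IGF1, IGFBP2 and IGFBP5 rose and IGFBP6 fell in both depots. IGFBP2 was higher on day 8 by 2.43 in BF (SE 0.43, adjusted p = 8.99e-05) and by 3.60 in IMF (SE 0.43, adjusted p = 1.70e-06). IGFBP4 was higher by 3.54 in IMF (SE 0.39, adjusted p = 6.37e-07). Its BF value was 1.11 (SE 0.39, adjusted p = 0.0225), not called with all libraries. That value was called without BF-2d replicate 3, and with only the libraries compared. IGFBP6 fell by 1.40 in BF (SE 0.18, adjusted p = 1.94e-06) and by 1.95 in IMF (SE 0.18, adjusted p = 5.98e-08). IGFBP7 fell by 2.05 in BF (SE 0.19, adjusted p = 5.02e-08) with 0.50 in IMF (SE 0.19, adjusted p = 0.0501). Over the same days LPL (6.98 in BF, 5.86 in IMF) and PDGFRA (1.51 and 1.89) rose and COL1A1 (-2.77 and -1.58) and DES (-2.43 and -3.82) fell in both depots, and their part was not tested.

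**Figure D3:**
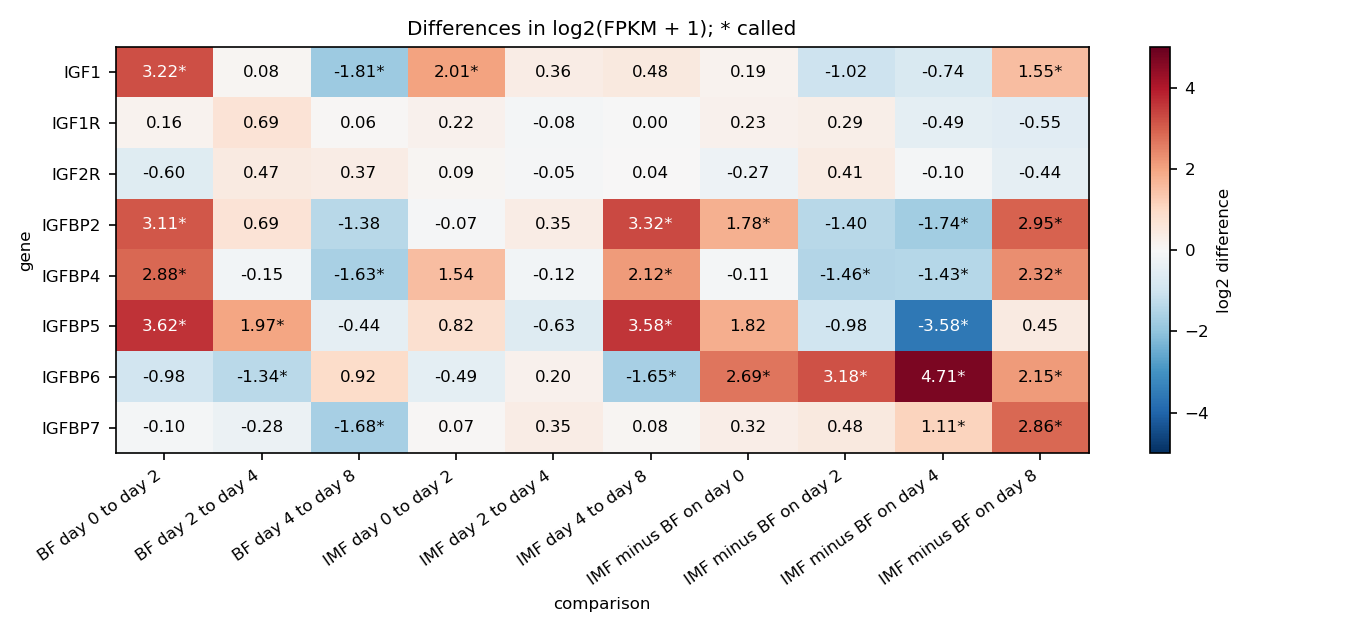
Differences in log2(FPKM + 1) of 8 genes (rows) in 10 comparisons (columns), given as the later day less the earlier, or as IMF less BF on the same day, with red higher, blue lower and a star for a call. IGFBP6 is starred in all 4 depot comparisons, and IGF1R and IGF2R hold no star.

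The depots were compared on each day. IGFBP6 separated them on all 4 days, with libraries that never overlapped. IMF libraries had 86.4, 74.8 and 105 FPKM on day 0, 68.8, 55.5 and 63.0 FPKM on day 2 and the day 4 and day 8 values given above. The log2 difference was 2.69 on day 0 (SE 0.18, adjusted p = 2.01e-09), 3.18 on day 2 (adjusted p = 2.16e-10), 4.71 on day 4 (adjusted p = 3.31e-13) and 2.15 on day 8 (adjusted p = 2.50e-08), with the same SE. DES was also higher in IMF (37.0 against 4.68 FPKM on day 0 and 11.7 against 0.0311 on day 4). The summed myogenic list was 29.7 to 45.4 FPKM in IMF-0d and 4.56 to 4.91 in BF-0d, with MYF5 and MYOD1 listed at 0 and PAX7 at most 0.00683 FPKM. The part of these markers in the IGFBP6 difference was not tested.

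On day 0, 2 of 8 genes were called, both higher in IMF (background 2.58%, 1.87% higher). Besides IGFBP6 this was IGFBP2, with a difference of 1.78 (SE 0.43, adjusted p = 0.00678) and no overlap. That call was kept in 0 of 6 fits that each left out a compared library, at differences of 1.64 to 1.91. IGFBP5 was also higher in every IMF-0d library (1.82, SE 0.50) but missed the adjusted p at 0.0186. It was called without BF-2d replicate 1 or 3, and with only the libraries compared. Of the adipocyte markers, PPARG (-1.67) and FABP4 (-1.59) were called lower in IMF on day 0.

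On day 2, 2 of 8 genes were called, IGFBP6 higher and IGFBP4 lower in IMF (background 4.74%). The IGFBP4 difference was -1.46 (SE 0.39, adjusted p = 0.00926), and the groups overlapped because BF-2d replicate 3 (166 FPKM) lay below IMF-2d replicate 2 (227 FPKM). The call was kept in 4 of 24 fits that each left out 1 library, those without BF-2d replicate 3, BF-4d replicate 1 or 3 or IMF-2d replicate 2. Over the 6 compared libraries left out in turn, the difference was -2.06 to -1.13. IGFBP2 differed by -1.40 (SE 0.43, adjusted p = 0.0204), and without BF-2d replicate 3 by -2.16 (adjusted p = 1.37e-05), which was called. On day 2, 3 of 5 adipocyte markers tested were called lower in IMF (LPL -3.46, CEBPA -1.42 and PPARG -1.15), as was the stromal marker PDGFRA (-1.41). The PPARG call was kept in 2 of 6 fits that left out a compared library, and the others in all 6.

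On day 4, 5 of 8 genes were called, 2 higher and 3 lower in IMF (background 11.3%). On that day 5 of 7 stromal markers were called as well, 3 higher and 2 lower in IMF. COL1A1 (2.75), COL1A2 (1.73) and DCN (1.22) were higher, and PDGFRA (-1.24) and PDGFRB (-1.01) lower. The PDGFRB call was kept in 4 of 6 fits that left out a compared library. DES (3.61) was also called higher in IMF. LPL was the 1 called of 5 adipocyte markers tested, lower in IMF (log2 difference -5.06, kept in all 24 fits without 1 library). The part of these markers in the day 4 differences was not tested. IGFBP2 was lower in IMF by 1.74 on the log2 scale (log2 difference -1.74, SE 0.43, adjusted p = 0.00258), IGFBP4 by 1.43 (log2 difference -1.43, SE 0.39, adjusted p = 0.00544) and IGFBP5 by 3.58 (log2 difference -3.58, SE 0.50, adjusted p = 1.19e-05). IGFBP5 was at 122 to 126 FPKM in IMF-4d against 1129 to 1832 FPKM in BF-4d. IGFBP6 and IGFBP7 were higher in IMF, IGFBP7 by 1.11 (SE 0.19, adjusted p = 0.000119). The IGFBP2 call ended without BF-4d replicate 2 or IMF-4d replicate 3 (range -2.04 to -1.35). The IGFBP4 call was kept only without BF-4d replicate 3 among the 6 compared libraries (range -1.84 to -1.20), and the IGFBP7 call ended under median ratio scaling.

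On day 8, 5 of 8 genes were called, all higher in IMF (background 6.96%, 4.31% higher). The median log2 difference over the 8 genes was 1.85, against 0.04 for all tested genes, and all 8 genes had groups without overlap, as had 48.9% of tested genes. IGFBP2 was 2.95 higher (SE 0.43, adjusted p = 2.44e-05) and IGFBP4 2.32 higher (SE 0.39, adjusted p = 0.000111). IGFBP7 had 78.6, 55.1 and 86.1 FPKM in IMF-8d, above all BF-8d libraries, and was 2.86 higher (SE 0.19, adjusted p = 1.22e-09). IGFBP5 was not called (0.45, SE 0.50, adjusted p = 0.525). The receptors had lower values in IMF (IGF1R -0.55, SE 0.18, adjusted p = 0.0216, and IGF2R -0.44, SE 0.20, adjusted p = 0.0899), not called. LPL was at 120 FPKM in IMF-8d and 422 FPKM in BF-8d, a difference that was not called (-1.75, adjusted p = 0.0241). Among the markers, FABP4 (-1.57) and LUM (-1.26) were called lower and COL1A1 (1.28) and DES (1.33) higher in IMF on day 8. The endothelial marker PECAM1 was also called higher in IMF on day 8 (1.03, SE 0.16, adjusted p = 5.43e-05), at 3.89 to 4.81 FPKM against 1.15 to 2.16 FPKM, and that call ended without BF-8d replicate 1 or IMF-8d replicate 3 and under either other scaling. The part of these markers in the depot differences was not tested.

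**Figure D4:**
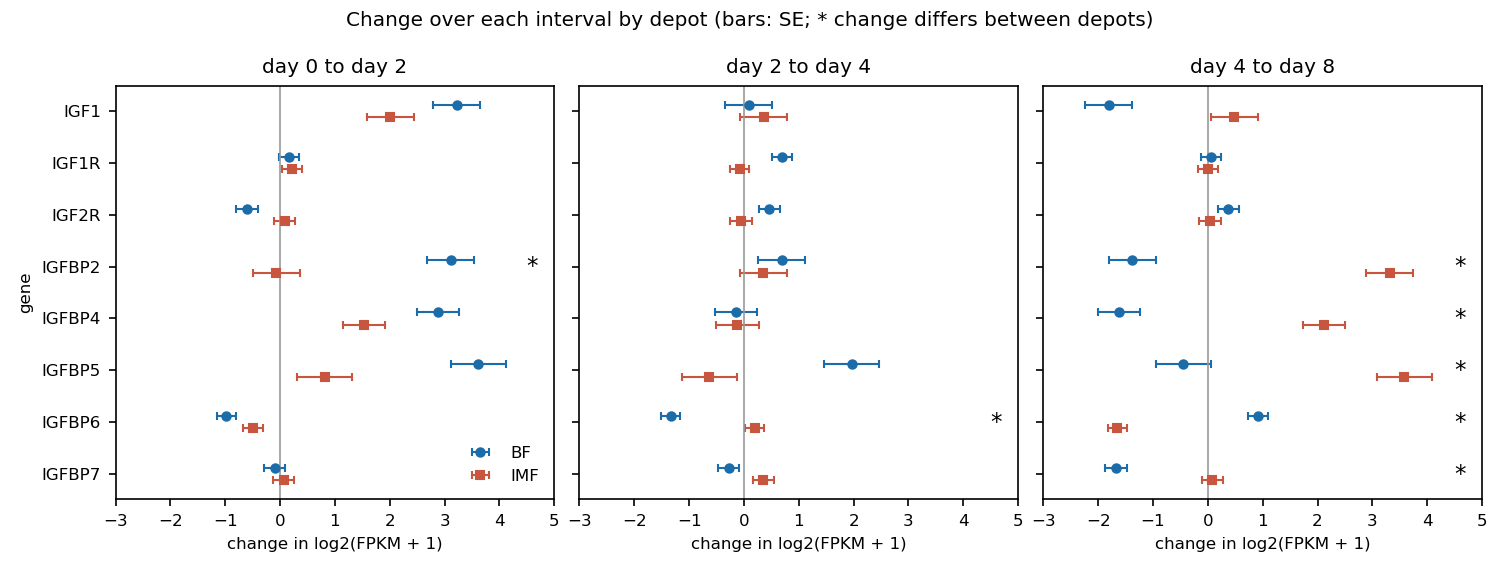
Change in log2(FPKM + 1) of 8 genes over 3 intervals in BF (circles) and IMF (squares), error bars SE, with a star where the difference between depots in that change was called. Stars stand at IGFBP2 for day 0 to day 2, at IGFBP6 for day 2 to day 4 and at all 5 binding proteins for day 4 to day 8.

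Whether a change differed between depots was tested as the IMF change minus the BF change. From day 0 to day 2, 1 of 8 genes was called (background 2.45%). This was IGFBP2, which had a change of -0.07 in IMF and 3.11 in BF (difference -3.18, SE 0.60, adjusted p = 0.00242). IGFBP4 (-1.35, SE 0.55, adjusted p = 0.102) and IGFBP5 (-2.80, SE 0.71, adjusted p = 0.0148) were not called with all libraries. Without BF-2d replicate 3 both were, at -1.95 (adjusted p = 0.00251) and -3.86 (adjusted p = 2.68e-09). From day 2 to day 4, 1 gene was called (background 3.06%), IGFBP6, which fell by 1.34 in BF and had a change of 0.20 in IMF (difference 1.53, SE 0.25, adjusted p = 0.000932). IGFBP5 (-2.59, SE 0.71, adjusted p = 0.0217) was called in this interval without BF-2d replicate 1 or 3, at -1.54 without replicate 3.

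From day 4 to day 8 all 5 binding proteins with values were called (5 of 8 genes, background 6.39%). The difference was 4.69 for IGFBP2 (SE 0.60, adjusted p = 2.39e-05), 4.03 for IGFBP5 (SE 0.71, adjusted p = 0.000558) and 3.75 for IGFBP4 (SE 0.55, adjusted p = 8.78e-05). IGFBP7 had 1.76 (SE 0.27, adjusted p = 0.000173) and IGFBP6 had -2.57 (SE 0.25, adjusted p = 8.89e-07). These 5 calls were kept in all 24 fits that each left out 1 library and in all 8 alternative settings. In the same contrast LPL (3.31) was called higher and DES (-2.28), COL1A1 (-1.47), LUM (-1.27) and COL3A1 (-1.15) lower, the LPL call being kept in 2 and the COL1A1 call in 1 of 12 fits that left out a compared library. Over the whole culture, day 0 to day 8, the depots differed in IGFBP4 (2.43, SE 0.55, adjusted p = 0.00398) and IGFBP7 (2.55, SE 0.27, adjusted p = 3.00e-06), which is 2 of 8 (background 4.98%). The IGFBP4 call ended without BF-0d replicate 2 or 3, BF-8d replicate 3, IMF-0d replicate 2 or IMF-8d replicate 3 (range 2.31 to 2.53). IGFBP2 (1.17, SE 0.60, adjusted p = 0.192) and IGFBP5 (-1.37, SE 0.71, adjusted p = 0.196) were not called over the whole culture. The markers called over the whole culture were DCN (1.28), PECAM1 (1.08) and COL1A2 (1.09, kept in 0 of 12 fits that left out a compared library), and from day 2 to day 4 they were DES (2.36), CEBPA (2.02), COL1A1 (1.90) and DCN (1.08). The part of the markers in these contrasts was not tested.

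The other genes of the IGF system were read from 4 lists with 52 tested genes. The first BF interval held 4 calls of the 52 (3 higher, 1 lower, background 6.59%) and the last IMF interval 3 of the 52 (1 higher, 2 lower, background 7.25%), shares near those of all tested genes. From day 2 to day 4 in IMF limma called 0 of the 52 (background 0.0372%), with 4 at an unadjusted p under 0.05. The median log2 fold change over the 52 genes was -0.12 in the first BF interval and -0.05 in the last IMF interval, near the -0.04 and -0.07 of all tested genes.

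Outside the cell, 9 of 14 listed genes were tested. STC1, stanniocalcin 1, an inhibitor of the IGFBP protease PAPPA, was nearly silent in uninduced cells and became abundant. It had 0.0530, 0.0192 and 0.0191 FPKM in BF-0d, 84.2, 62.2 and 3.19 FPKM in BF-2d and 114, 174 and 337 FPKM in BF-4d. It rose by 4.78 over the first interval in BF (SE 0.70, adjusted p = 4.30e-05), and by 3.98 to 6.15 as each compared library was left out. The second interval added 2.74 (SE 0.70, adjusted p = 0.00837). The second rise was 1.37 without BF-2d replicate 3, still called, and of the 24 fits that each left out 1 library it was kept in 7. In IMF it stayed under 1 FPKM to day 4 and had 224, 288 and 193 FPKM on day 8 (rise of 7.50, SE 0.70, adjusted p = 1.73e-07). The depots differed by -4.37 on day 2 and -7.20 on day 4 (adjusted p = 0.000189 and 1.70e-07). With each compared library left out, these differences were -5.75 to -3.58 and -7.57 to -6.78. STC1, IGFBP2, IGFBP4 and IGFBP5 were all called higher in the first BF interval and in the last IMF interval. In the second BF interval STC1 and IGFBP5 were called higher, while IGFBP2 (0.69) and IGFBP4 (-0.15) were not called.

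PAPPA itself, the metalloproteinase that cleaves IGFBP4 and IGFBP5, lay between 1.92 and 22.1 FPKM and was called in 0 of 16 comparisons by limma, with 6 at an unadjusted p under 0.05. From day 4 to day 8 in IMF it went from 19.9 ± 0.399 to 7.47 ± 1.27 FPKM (SD, n = 3), without overlap but short of the adjusted p (-1.31, SE 0.43, adjusted p = 0.0237). HTRA3, a secreted serine protease, rose by 2.12 in BF between days 0 and 2 (SE 0.29, adjusted p = 1.59e-05). HTRA1, its relative known to cleave IGFBPs, fell by 1.24 in BF between days 2 and 4 (SE 0.19, adjusted p = 0.0002), with 289, 322 and 151 FPKM in BF-4d. Without BF-4d replicate 3 that difference was -0.90, under the fold threshold. HTRA1 was higher in IMF by 1.57 on day 8 (SE 0.19, adjusted p = 3.93e-06). STC2 fell by 1.40 in IMF between days 0 and 2 (SE 0.27, adjusted p = 0.00315), a call kept in 1 of 6 fits that left out a compared library, the one without IMF-2d replicate 3. IGFBP1, the liver binding protein, was listed at 0 in all 24 libraries, and IGFALS, the subunit of the circulating ternary complex, was at most 0.801 FPKM.

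Inside the cell, 28 of 32 listed receptor and signalling genes were tested. Over the 3 BF intervals limma called 0 in 84 tests, with 32 at an unadjusted p under 0.05, where 6.59%, 3.35% and 2.93% of all tested genes were called. The adaptor IRS1 was the 1 call of the IMF intervals and fell by 1.26 between days 4 and 8 (SE 0.23, adjusted p = 0.000259), from 8.50 to 2.98 FPKM. FOXO1, a transcription factor that the pathway inactivates, was 1.01 higher in IMF on day 8 (SE 0.15, adjusted p = 4.701e-05), and the call ended without BF-8d replicate 2 or 3 or IMF-8d replicate 2 (range 0.88 to 1.18) and under either other scaling. Between days 0 and 8, the adaptor GRB10, an inhibitor of the receptor, fell by 1.38 in BF (SE 0.12, adjusted p = 1.96e-08), and PIK3R1, the regulatory subunit of phosphoinositide 3-kinase, rose by 1.62 in IMF (SE 0.16, adjusted p = 2.01e-07).

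Of the growth hormone axis and control of IGF mRNA, 11 of 15 listed genes were tested. GHR, the growth hormone receptor, fell by 1.60 in the first BF interval (SE 0.28, adjusted p = 0.000204). In the last IMF interval it fell by 1.79 (SE 0.28, adjusted p = 5.46e-05). Its libraries were at 5.70, 5.68 and 5.65 FPKM in BF-0d and 0.838, 0.256 and 3.64 FPKM in BF-2d, again with replicate 3 nearest to day 0. GHR thus fell in the 2 intervals in which IGFBP2 rose. SOCS3, a feedback inhibitor of cytokine receptors, rose by 1.81 in the first BF interval (SE 0.18, adjusted p = 3.52e-07) and fell by 1.32 in IMF between days 0 and 8 (SE 0.18, adjusted p = 6.43e-06). JAK2, the kinase bound to GHR, rose by 1.18 in BF between days 4 and 8 (SE 0.24, adjusted p = 0.00231). BF-8d libraries had 6.49, 18.0 and 8.05 FPKM of JAK2, and the call ended without replicate 2 of that group (0.77) or BF-4d replicate 1 (1.10). The 4 mannose 6-phosphate partners of IGF2R gave 0 calls by limma in 48 tests between 2 groups, with 24 at an unadjusted p under 0.05. The background in those 12 comparisons was 0.0372% to 13.7%. In the 4 differences between depots in a change they gave 1 call, GNPTG, a subunit of the enzyme that makes the mannose 6-phosphate tag, over day 0 to day 8 (1 of 4, background 4.98%). GNPTG had changes of 0.63 in IMF and -0.47 in BF, a difference of 1.09 (SE 0.16, adjusted p = 8.90e-05) that was kept in all 24 fits without 1 library.

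Genes with a profile most like a member's were found by Pearson's r of log2(FPKM + 1) over the 24 libraries among 9480 genes, as a description. The 24 points fall into 8 groups and are not independent. For IGF1 they were PDE7B (0.935), SLC43A2 (0.917) and IGFBP4 (0.902). For IGFBP2 they were RAMP1 (0.962), DIO2 (0.937) and MED21 (0.933). For IGFBP5 they were DUSP4 (0.974), DPY19L1 (0.950) and NDRG4 (0.950), and for IGFBP6 TM4SF1 (0.969), C17orf67 (0.962) and MEOX2 (0.961). IGFBP4 was the 1 binding protein among these closest profiles.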

How the data were processed

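RNA of 24 libraries (2 depots, 4 days, 3 replicates) was measured by poly(A) RNA sequencing. The authors aligned reads with HISAT2 to Sscrofa11.1, and the deposited values are FPKM from StringTie (1.3.4d), scaled by the authors for transcript length and mapped fragments. They keep no counts, so the depth behind a value is unknown from them and counting error could not be computed. The sequencing yields the authors list per library were not used here. The authors tested counts with DESeq2 (1.6.3), which FPKM do not allow.

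Here, log2(FPKM + 1) of the 16135 genes with a summed FPKM over 1 was fitted with limma 3.58.1 (R 4.3.3), 1 mean per group over all 24 libraries, with trend and robust moderation. Adjusted p-values are Benjamini-Hochberg over all tested genes in a comparison. The fit was tested on simulated data. The members and lists were chosen with earlier results of these data known. All members are named, as are the genes with the largest called rise and fall per IGF system list and comparison of 2 groups, 5 further genes (IGFBP1, IGFALS, INSR, PAPPA and STC1), and the 3 closest profiles of IGF1 and of the 3 binding proteins with the widest range. Genes were matched by identifier with a symbol table. Alternatives were another pseudocount (0.1), 2 filters, 2 scalings, 2 fits of the spread, a replicate block and leaving out each library. Sequences were read from RefSeq models on Sscrofa11.1.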

Additional observations from a re-analysis of the deposited data

Results flagged for a closer look

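A change over time differed between the depots in 9 tests of the IMF change minus the BF change (limma, adjusted p under 0.01). From day 0 to day 2 this was IGFBP2 (-3.18). From day 2 to day 4 it was IGFBP6 (1.53). From day 4 to day 8 the values were 4.69 for IGFBP2, 3.75 for IGFBP4, 4.03 for IGFBP5, -2.57 for IGFBP6 and 1.76 for IGFBP7. From day 0 to day 8 they were 2.43 for IGFBP4 and 2.55 for IGFBP7. Each difference is in log2(FPKM + 1), with 3 libraries in each group. IGFBP2, IGFBP4 and IGFBP5 rose in IMF from day 4 to day 8, while the BF values were -1.38, -1.63 and -0.44.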

How the results depend on the processing

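Of the 47 calls of a member in a comparison, 47 were kept with pseudocount 0.1, with a group mean of at least 1 FPKM required and with the replicate block, 46 without trend and robust moderation, 44 with quantile normalization, 42 with median ratio scaling, 38 without a filter and 35 with only the libraries compared. Median ratio scaling ended the calls of IGFBP5 in BF from day 2 to day 4, IGFBP4 in BF from day 4 to day 8, and IGFBP2 (day 0), IGFBP7 (day 4) and IGF1 (day 8) between depots. None of the 47 changed direction under these 8 settings or in the fits that left out 1 library. With only the libraries compared, 3 further member differences at an unadjusted p under 0.05 were called. The count of calls over successive days in BF was 9 and became 1 with only the libraries compared, a fit with fewer libraries. Leaving out 1 library at a time, that count was 6 to 11, that of IMF (5) was 4 to 6, that between depots (14) 11 to 17, that of differences between depots in a change (9) 8 to 13, and that of day 0 against day 8 (10) 9 to 11. The counts of 17 and 13 were those without BF-2d replicate 3. Of the 42 calls of other IGF system genes, 28 were kept in every fit without a compared library and 25 in all 8 settings, and 0 changed direction. FPKM keep no read counts, so the counting error of low values could not be computed.

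No pairing by replicate number was seen in the values. With 3 libraries per group, such values cannot exclude that same-number libraries shared an animal. Same-number libraries of 2 groups had a median correlation of 0.001 in their deviations from the group means, 9 of 84 exceeded 0.1, and in 0 of 28 pairs of groups did all 3. With the replicate number as a block, the calls of differences between depots in a change were 10 in place of 9, with IGF1 from day 4 to day 8 added, and the other counts stayed at 9, 5, 14 and 10.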
